A study of Heterocephalus glaber with 9 samples.

Results

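The aminoacyl-tRNA synthetases, the enzymes that charge each tRNA with its amino acid, were followed in the liver of old and young male naked mole-rats. The set was defined by gene symbol alone and holds 39 of the 16339 rows of the count table: 20 genes for cytosolic synthetases, 16 for mitochondrial synthetases and 3 for scaffold proteins of the complex that several cytosolic synthetases form. The study compared gene expression in liver between ages in this long-lived rodent. The old group consisted of 3 males, labelled A, B and C, with label ages of 20, 30 and 20 years, all non-breeders. The study's methods put the minimum age of the old animals slightly above the label age of A and C. The young group consisted of 6 males of 2.7 to 4.1 years, numbered 1 to 6 with the oldest as 3, whose reproductive status the labels do not state. Neither group carried a treatment or an engineered allele, and each animal gave 1 library of polyadenylated RNA.

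A synthetase activates its amino acid with ATP and joins it to the matching tRNA, and its accuracy sets which residue the ribosome adds. Animal cells use separate sets of enzymes for the cytosol and for the mitochondrial matrix. All of the mitochondrial enzymes are made from nuclear genes and imported, and GARS and KARS serve both compartments from a single gene. In hepatocytes, which secrete most plasma proteins, the cytosolic set feeds a heavy load of translation, and in mammals the transcription factor ATF4 raises many of these genes when amino acids are short.

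Between 14541856 and 20464409 reads were counted per liver, and all 39 genes passed the filter on low counts. The lowest count of any of them in a liver was 42 and the highest 4135. Values below are CPM, read counts set on a common library size, after TMM scaling, which corrects for total count and composition. TMM factors were 1.12 to 1.19 in old and 0.840 to 0.986 in young livers, which lowers CPM in old relative to young livers. Before this scaling, the 39 genes took 0.2355% of counts in A, 0.161% in B and 0.160% in C, against 0.109% to 0.136% in young livers. The test was edgeR's quasi-likelihood test over 12277 genes, with calls at a false discovery rate (FDR, Benjamini-Hochberg over all these genes) of 0.1 or less. Levels were compared between livers, not between genes, because no gene lengths of the authors' annotation were used here. Old liver A and the oldest young liver (4.1 years) stood apart. Albumin mRNA took 1.41% of counts in A, 7.69% in B and 6.99% in C, against 7.86% in the oldest young liver and 10.8% to 14.8% in the other young livers. The humanin-like transcript MTRNR2L4 took 10.1% of counts in A, 2.43% in B and 3.07% in C, against 11.9% in the oldest young liver and 3.55% to 4.17% in the other young livers. Summed mRNA of 18 hepatocyte markers was 51310 CPM in A, 159200 in B and 137100 in C, against 182700 to 291300 in young livers. Stellate cell markers (11 of 11 with negative log2 fold changes, 4 of them called lower) summed to 113 to 170 CPM in old and 225 to 317 CPM in young livers. Kupffer cell markers summed to 79.9 CPM in A, 450 in B and 395 in C, against 241 to 364 CPM in young livers. Erythroid markers (2 of 4 called lower) summed to 40.6 to 66.9 CPM in old and 130 to 588 CPM in young livers. T and NK cell markers (7 of 7 with positive log2 fold changes, 1 called higher) summed to 13.0 to 18.4 CPM in old and 6.97 to 11.2 CPM in young livers. Endothelial markers (3 of 10 called higher and 1 lower) summed to 1785 CPM in A, 724 in B and 750 in C, against 432 to 766 CPM in young livers. Sums of cholangiocyte (1 of 6 called higher), B and plasma cell, and neutrophil markers overlapped between ages. Sums also hold markers too low to be tested. Over all genes tested, 11.7% were called higher, 3.65% were called lower and 50.8% had positive log2 fold changes. The part of these differences between livers in the results was not tested. In whole liver, fewer cells of a type cannot be told apart from less RNA per cell. The library names of old and young livers carry different prefixes, with 0 prefixes shared, and all young samples are marked as re-used, so the origin of the libraries and age cannot be told apart. The library name of A is marked as merged, unlike those of B and C.

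Across the set, 4 genes were higher in old livers, 1 was lower and 34 were not called. The genes called higher were VARS and TARS among the cytosolic enzymes and SARS2 and VARS2 among the mitochondrial enzymes, and the gene called lower was the mitochondrial FARS2. Over all genes tested, 11.7% were called higher and 3.65% lower, so the share of members called was close to that of the table in both directions. The median log2 fold change, old over young, was 0.15 for cytosolic synthetases, -0.10 for mitochondrial synthetases and -0.21 for scaffold proteins, beside 0.02 for all genes tested. Without A these medians were 0.02, 0.06 and -0.07, beside -0.02 for all genes. Signs were mixed, with 19 genes positive and 20 negative. All 3 old livers lay above all young livers for VARS, CARS, SARS2, VARS2 and AARS2, which is 5 of 39 genes beside 9.83% of all genes. All 3 lay below them for NARS, FARS2 and NARS2, which is 3 of 39 genes beside 8.01% of all genes.

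**Figure D1:**
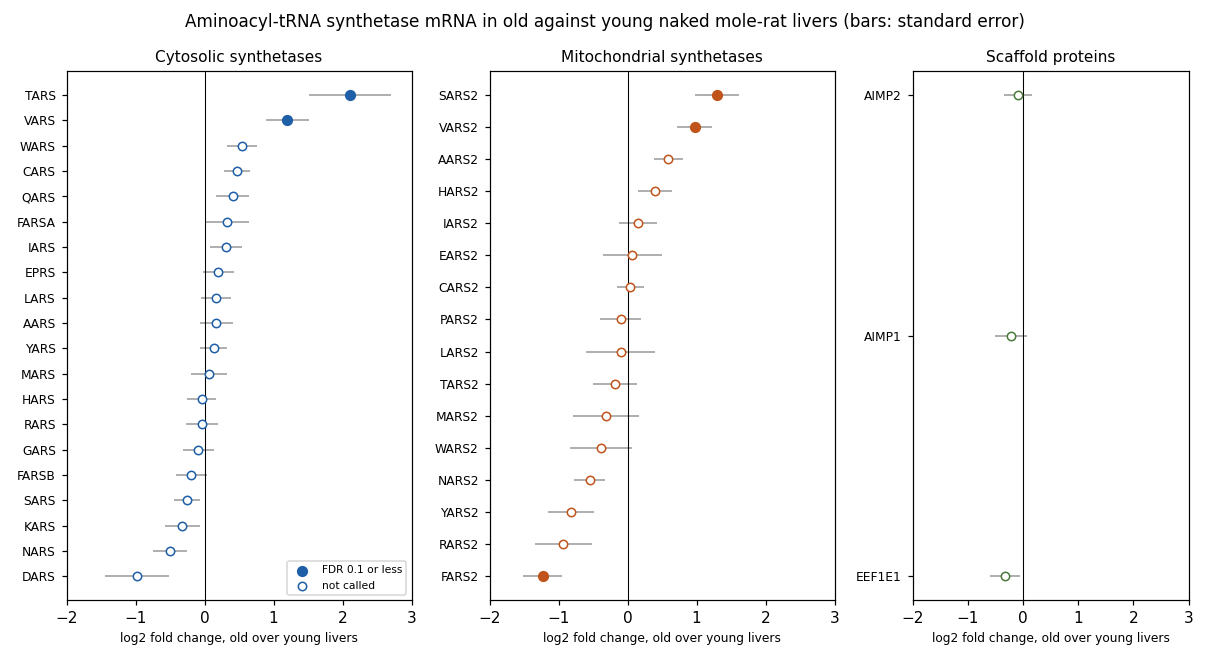
Log2 fold change of each gene, old over young livers, with its standard error, in panels for cytosolic synthetases, mitochondrial synthetases and scaffold proteins, each ordered by fold change. Filled points mark the 5 called genes, which span -1.23 (FARS2) to 2.11 (TARS); open points mark the 34 others.

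Among the cytosolic synthetases, VARS and TARS rose. VARS charges tRNA with valine. Its level was 215 CPM in A, 92.6 in B and 82.3 in C, against 43.1 (lowest), 54.1 (median) and 70.5 (highest) in young livers. All old livers stood above all young livers, with A far above B and C (log2 fold change 1.20, standard error 0.31, FDR 0.0530). TARS charges tRNA with threonine. Its level was 228 CPM in A, 27.2 in B and 33.7 in C, against 14.8, 20.1 and 41.4 in young livers. The groups overlapped, because the oldest young liver stood at 41.4 CPM, above B and C, while the other young livers reached at most 20.3 CPM (log2 fold change 2.11, standard error 0.59, FDR 0.0619). TARS in A was 7.50 times the mean of B and C, the widest such gap among the 39 genes. Without liver A the log2 fold changes were 0.63 for VARS (FDR 0.150) and 0.45 for TARS (FDR 0.537), and no cytosolic synthetase was called in either direction. In that fit 2.13% of all genes were called higher and 1.35% lower. VARS was also not called after leaving out young liver 2, 4, 5 or 6 (log2 fold changes of 1.14 to 1.20), nor TARS after leaving out young liver 1, 2, 4, 5 or 6 (2.02 to 2.09). Calls fell over the whole table in these fits, to between 125 and 785 genes higher, against 1437 with all livers.

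A further group of cytosolic enzymes had positive fold changes that did not pass the test. WARS, the tryptophan enzyme, which in mammals is also induced by interferon-gamma, had 115 CPM in A, 86.2 in B and 76.2 in C, against 47.9, 64.8 and 77.6 in young livers. Here only C fell inside the young range (log2 fold change 0.54, standard error 0.22, FDR 0.137). WARS was called without the oldest young liver (0.60, FDR 0.0805) and had 0.35 (FDR 0.359) without A. CARS, the cysteine enzyme, had 26.4 CPM in A, 20.9 in B and 18.3 in C, against 14.0, 16.4 and 16.8 in young livers. The groups did not overlap (log2 fold change 0.47, standard error 0.19, FDR 0.139). The 3 old livers were close to each other compared with those for VARS, with A the highest. Without A the log2 fold change of CARS was 0.32 (FDR 0.34).

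At the other end of the cytosolic set stood the enzymes for aspartate and asparagine, neither of which passed the test. DARS, the aspartate enzyme of the multi-synthetase complex, had 4.58 CPM in A, 20.9 in B and 23.3 in C, against 16.3, 34.0 and 42.3 in young livers. The lowest young value, 16.3 CPM, was that of the oldest young liver, and the other young livers lay between 29.2 and 42.3 CPM, above all old livers (log2 fold change -0.98, standard error 0.46, FDR 0.185). The log2 fold change of DARS was -0.54 without A (FDR 0.404), and -0.67 with the oldest young liver left out as well (FDR 0.0242). NARS, the asparagine enzyme, had 17.2 CPM in A, 35.4 in B and 33.0 in C, against 37.9, 39.8 and 43.0 in young livers. Its young livers were tightly grouped, and all old livers lay below them (log2 fold change -0.50, standard error 0.24, FDR 0.193; without A -0.23, FDR 0.419).

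**Figure D2:**
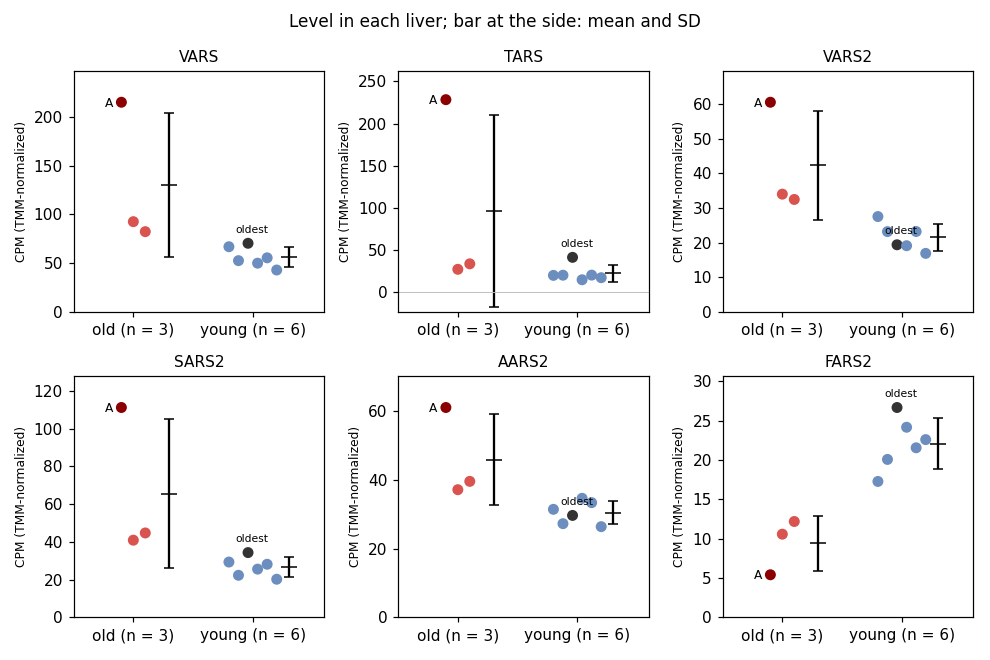
TMM-normalized CPM of VARS, TARS, VARS2, SARS2, AARS2 and FARS2 in each old (left) and young (right) liver, with the mean and SD of each group at the side. Old liver A is the highest point of all for VARS, TARS, VARS2, SARS2 and AARS2 (215, 228, 60.5, 111 and 61.0 CPM) and the lowest for FARS2 (5.42 CPM); the oldest young liver is marked.

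The mitochondrial set held the only gene called lower. FARS2 is the mitochondrial phenylalanine enzyme, which in mammals works as a single chain, unlike its cytosolic counterpart. Its level was 5.42 CPM in A, 10.6 in B and 12.2 in C, against 17.3, 22.1 and 26.7 in young livers. All old livers lay below all young livers (log2 fold change -1.23, standard error 0.28, FDR 0.0448), and the highest of the young was the oldest young liver. FARS2 averaged 9.40 ± 3.54 CPM in old livers and 22.1 ± 3.26 CPM in young livers (SD, n = 3 and n = 6). Unlike the genes called higher, it stayed past the threshold without A, at a log2 fold change of -0.95 (FDR 0.0712). FARS2 was then the only one of the 39 genes called, while 2.13% of all genes were called higher and 1.35% lower. It was no longer called after leaving out young liver 2, 4 or 6, with log2 fold changes of -1.25, -1.20 and -1.22. Over all genes, 62, 85 and 67 were called lower in these fits, against 448 with all livers. In the RefSeq annotation FARS2 overlaps an adjacent gene model without a gene name, and its counts could include reads of that neighbour.

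SARS2 and VARS2 rose in old livers. SARS2 charges the mitochondrial serine tRNAs. It had 111 CPM in A, 40.9 in B and 44.7 in C, against 20.2, 26.9 and 34.3 in young livers. The groups did not overlap (log2 fold change 1.30, standard error 0.32, FDR 0.0503). In the RefSeq annotation SARS2 overlaps MRPS12, a mitochondrial ribosomal protein gene whose counts went the other way without passing the test (log2 fold change -0.81, FDR 0.148). VARS2, the mitochondrial valine enzyme, had 60.5 CPM in A, 34.0 in B and 32.5 in C, against 16.9, 21.3 and 27.5 in young livers. Again all old livers lay above the young (log2 fold change 0.97, standard error 0.25, FDR 0.0530). Without A the log2 fold changes were 0.68 for SARS2 (FDR 0.133) and 0.62 for VARS2 (FDR 0.149), so neither was called, although B and C still stood above every young liver. Leaving out young liver 2, 4, 5 or 6 also ended both calls, at log2 fold changes of 1.23 to 1.32 for SARS2 and 0.91 to 0.99 for VARS2. Calls fell over the whole table in these fits, to between 125 and 310 genes higher, against 1437 with all livers.

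Further mitochondrial enzymes did not pass the test. AARS2, the mitochondrial alanine enzyme, had 61.0 CPM in A, 37.1 in B and 39.5 in C, against 26.4, 30.5 and 34.6 in young livers. All old livers lay above the young, and the FDR of 0.106 was just outside the threshold (log2 fold change 0.59, standard error 0.21). YARS2, the tyrosine enzyme, had 3.80 CPM in A, 9.55 in B and 10.3 in C, against 10.1, 13.9 and 18.7 in young livers. The lowest young value was again that of the oldest young liver, and only C lay above it (log2 fold change -0.82, standard error 0.33, FDR 0.134). NARS2, the asparagine enzyme, had 6.76 CPM in A, 7.22 in B and 7.56 in C, against 7.86, 10.5 and 12.8 in young livers. A stood close to B and C here, and all old livers lay below the young (log2 fold change -0.55, standard error 0.23, FDR 0.147). Without the oldest young liver AARS2 was called higher (0.59, FDR 0.0938) and YARS2 (-0.90, FDR 0.0929) and NARS2 (-0.62, FDR 0.0692) lower. AARS2 was also called without B (0.72) or without C (0.68). Without A the log2 fold changes were 0.33 for AARS2 (FDR 0.311), -0.49 for YARS2 (FDR 0.316) and -0.51 for NARS2 (FDR 0.291).

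The remaining cytosolic enzymes had log2 fold changes from -0.32 (KARS, lysine) to 0.41 (QARS, glutamine), and the remaining mitochondrial enzymes from -0.93 (RARS2, arginine) to 0.40 (HARS2, histidine), with none called. Without A these genes had -0.05 (KARS), 0.02 (QARS), -0.77 (RARS2) and -0.02 (HARS2). FDR ran from 0.137 to 0.912 over the 18 cytosolic genes not called and from 0.106 to 0.919 over the 13 mitochondrial genes not called. Standard errors of the log2 fold change lay between 0.19 and 0.59. The widest among the mitochondrial genes was that of LARS2, the leucine enzyme (0.50), which had 3.80 CPM in A, 12.8 in B and 13.7 in C, against 2.77, 12.0 and 15.4 in young livers. A and the oldest young liver were the low ones, and the FDR was 0.902.

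The 3 scaffold proteins had negative fold changes and none was called, with FDR between 0.436 and 0.831. AIMP1, which binds tRNA within the complex and is also secreted as a cytokine precursor in mammals, had 3.35 CPM in A, 6.37 in B and 5.66 in C, against 3.90, 6.09 and 7.68 in young livers. AIMP2, the central scaffold, had 3.63 CPM in A, 3.50 in B and 4.03 in C, against 3.39, 3.80 and 5.22 in young livers. EEF1E1, which resembles subunits of an elongation factor, had 5.81 CPM in A, 9.55 in B and 9.78 in C, against 7.80, 10.7 and 14.3 in young livers. Old and young livers overlapped for all of them, with log2 fold changes of -0.21 (standard error 0.29), -0.09 (0.25) and -0.33 (0.27). AIMP1 had a log2 fold change of 0.02 without A and AIMP2 of 0.01 without the oldest young liver. Of the whole multi-synthetase complex, 0 of 11 genes were called, and of the 28 genes outside it 5 were called, beside 11.7% of all genes higher and 3.65% lower. The difference between these shares was not tested. The median log2 fold change of the complex was -0.04 (0.02 without A).

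Enzymes that charge the same amino acid in the 2 compartments were set side by side. In 17 pairings of a cytosolic with a mitochondrial gene, in which EPRS (glutamate and proline) and FARS2 each stand in 2, the sign was shared in 8 and opposite in 9. The mitochondrial gene had the lower log2 fold change in 14 and the higher one in 3, those for alanine, histidine and serine. Without A the mitochondrial gene was the lower one in 11 and the higher one in 6, those for glutamate, proline, histidine, isoleucine, leucine and serine. Valine was the amino acid for which both genes rose, at 0.97 for VARS2 and 1.20 for VARS. For serine, SARS2 rose by 1.30 while SARS had -0.26 (FDR 0.371). For phenylalanine, FARS2 fell by 1.23, beside 0.33 for FARSA and -0.19 for FARSB, the catalytic and the partner chain of the cytosolic enzyme. FARSA had 102 CPM in A, 42.3 in B and 41.5 in C, and without A its log2 fold change was -0.23, beside -0.95 for FARS2. For threonine, TARS2 had -0.18 beside 2.11 for TARS (without A -0.13 and 0.45). The differences within pairs were not tested.

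**Figure D3:**
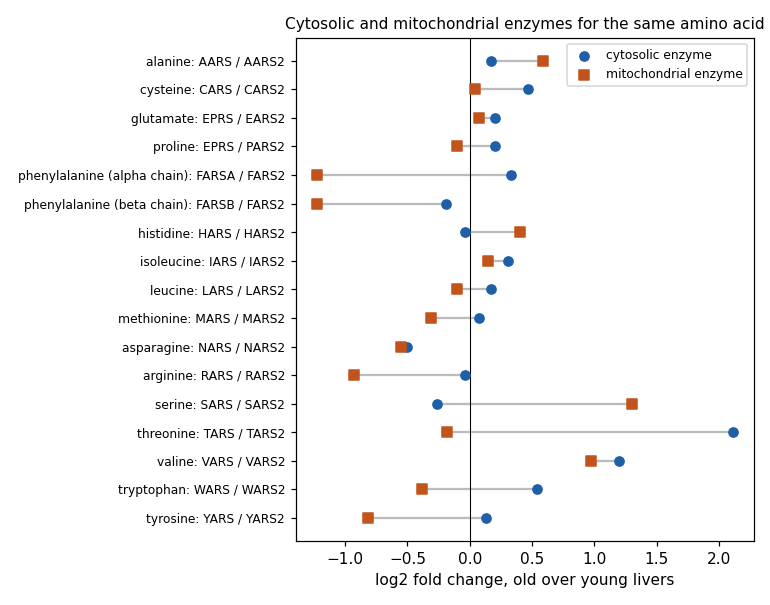
Log2 fold change, old over young livers, of the cytosolic (circle) and mitochondrial (square) enzyme for each amino acid, joined by a line. The square lies left of the circle in 14 of 17 pairings; threonine, phenylalanine and serine have the longest lines.

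The synthetases fall into 2 structural classes with unrelated catalytic folds. Class I genes (18, such as VARS, CARS and WARS) had a median log2 fold change of 0.10, with 2 called higher and none lower. This median was 0.20 without A and 0.02 without the oldest young liver. Class II genes (17, such as TARS, FARS2 and SARS2) had a median of -0.10, with 2 called higher and 1 lower, where 11.7% of all genes were higher and 3.65% lower. Of 12 synthetases known as ATF4 targets in mammals, 9 had positive fold changes, beside 50.8% of all genes. Their median was 0.17, and TARS was the only one called, where 11.7% of all genes were higher. Without A none of the 12 was called, beside 2.13% of all genes higher and 1.35% lower, and their median was 0.23.

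Much of the spread among old livers came from liver A. Of the 39 genes, A had the lowest of all 9 values in 16 and the highest in 13. A differed from the mean of B and C by more than 2 times in 15 genes: it was above it in 5 (TARS, SARS2, VARS, FARSA and HARS2) and below it in 10, 7 of them mitochondrial. B and C lay within 2 times of each other in all 39 genes, at most 0.50 apart on the log2 scale. Such counts were not made over all genes, so they do not show a trait particular to the synthetases. Relative to the young median, the median mitochondrial gene stood at -0.71 on the log2 scale in A, 0.04 in B and 0.12 in C, against -0.44 in the oldest young liver and -0.04 to 0.20 in the other young livers. The median cytosolic gene stood at 0.06 in A, 0.05 in B and 0.04 in C, against 0.06 in the oldest young liver and -0.04 to 0.02 in the other young livers. Cytosolic synthetases summed to 1432 CPM in A, 979 in B and 938 in C, against 847 to 944 in young livers. Mitochondrial synthetases summed to 552 CPM in A, 449 in B and 449 in C, against 292 in the oldest young liver and 408 to 478 in the others. In A the summed mitochondrial level was thus the highest of all livers, while the median mitochondrial gene was the lowest.

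Liver A and the oldest young liver were low in several of the same genes, which were picked out after their values were seen. The oldest young liver had less than 1/2 of the mean of the other young livers in 8 genes, 7 of them mitochondrial, and A had less than 1/2 of the mean of B and C in 5 of these 8: DARS, EARS2, LARS2, MARS2 and WARS2. No matching counts were made over all genes. MARS2, the mitochondrial methionine enzyme, had 5.03 CPM in A, 16.9 in B and 15.7 in C, against 4.16 in the oldest young liver and 15.4 to 21.4 in the other young livers. WARS2, its counterpart for tryptophan, had 2.85 CPM in A, 9.55 in B and 11.6 in C, against 4.75 in the oldest young liver and 9.46 to 16.5 in the other young livers. Both livers thus stood under the remaining livers of either age, and neither gene was called between ages (FDR 0.685 for MARS2 and 0.587 for WARS2). RARS2 and TARS2 were low in the oldest young liver, at 3.17 and 6.60 CPM, against 9.94 to 15.8 and 17.6 to 21.6 CPM in the other young livers. For RARS2, old livers had 4.19 CPM in A, 5.70 in B and 6.54 in C, under all young livers but the oldest, and the log2 fold change of -0.93 (FDR 0.167) became -1.11 (FDR 0.0380) without the oldest young liver. For correlations, deviations were taken from the mean log2 CPM of the young livers other than the oldest. Over all genes tested a constant was added to CPM before the log, which was not done for the 39 genes. Across the 39 genes, such deviations in A and in the oldest young liver had a Pearson r of 0.635 (Spearman's rho 0.598), beside 0.565 (0.519) over all genes tested. Deviations in A and B had an r of 0.668 (rho 0.596), beside 0.531 (0.549) over all genes, and those in A and C an r of 0.700 (rho 0.558), beside 0.599 (0.621). Deviations in B and C had an r of 0.922 (rho 0.886), beside 0.839 (0.810) over all genes. The genes of a liver share its library and its scaling, and the deviations of all these livers share a reference.

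**Figure D4:**
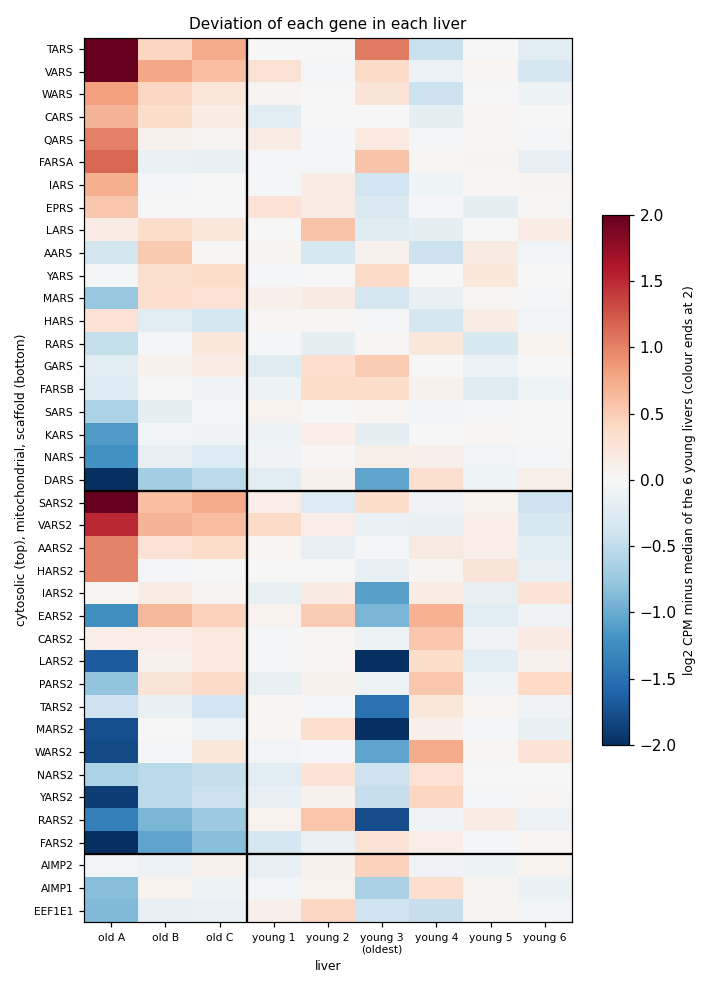
Log2 CPM of each gene minus the median of the 6 young livers, by liver (old A, B and C left, young 1 to 6 right) and gene (cytosolic, mitochondrial and scaffold from top to bottom); the colour scale ends at 2 in either direction. Old A and young 3, the oldest young liver, carry the strongest colours, with 7 and 6 mitochondrial genes more than 1 below the young median.

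With both of these livers left out, calls among the 39 genes became more frequent, as they did in the whole table. VARS, TARS and WARS (cytosolic) and SARS2 and VARS2 (mitochondrial) were then higher, and DARS (cytosolic) and FARS2, NARS2, RARS2 and YARS2 (mitochondrial) were lower, beside 14.2% of all genes higher and 11.7% lower. With limma voom and sample quality weights, in which A weighed 0.0674 and the oldest young liver 0.169, 9 genes were higher and 6 lower, beside 20.5% and 16.8% of all genes. DESeq2, the tool of the study, called 6 genes higher and 3 lower, beside 14.5% and 8.72% of all genes, and gave TARS no adjusted p. VARS, WARS, SARS2 and VARS2 were higher and FARS2, NARS2 and YARS2 lower in all 3 of these analyses. All 3 drew on the same animals, and voom discounted the same livers that the first left out, so their overlap is not independent support.

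Genes that work with the synthetases were counted from lists of the same pathway. Of 9 charging helpers tested, which correct, complete or protect charged tRNA, 0 were called, with a median log2 fold change of -0.03. Lowest in p was DTD2, an editing enzyme that removes wrongly attached residues, with 2.35 CPM in A, 3.00 in B and 3.90 in C, against 4.02, 5.19 and 7.53 in young livers (log2 fold change -0.81, FDR 0.106). SEPSECS, which completes selenocysteine on its tRNA, had 229.6 CPM in A, 51.4 in B and 55.9 in C, against 43.6, 53.9 and 110.2 in young livers. Its log2 fold change of 0.84 (FDR 0.250) turned to -0.23 without A. AARSD1, an alanine editing enzyme, had a log2 fold change of 0.34 (FDR 0.279; without A 0.13).

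Of 24 genes of tRNA maturation and export, 1 was called higher and 0 lower, beside 11.7% and 3.65% of all genes. TSEN54, a subunit of the tRNA splicing endonuclease, rose, with 199 CPM in A, 48.6 in B and 49.1 in C, against 20.3, 29.3 and 54.2 in young livers. As with TARS, A set the mean and the groups overlapped (log2 fold change 1.63, FDR 0.0625; without A 0.62, FDR 0.360). LAGE3, of the KEOPS complex that modifies tRNA, had a log2 fold change of -0.81 (FDR 0.127; without A -0.48) and POP4, a subunit of RNase P, of 0.75 (FDR 0.140; without A 0.24). The median over these genes was 0.20, and -0.02 without A.

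Enzymes that modify tRNA bases were the companion group with most calls: 10 of 48 were higher and 1 was lower, beside 11.7% and 3.65% of all genes, with a median log2 fold change of 0.35. PUS1, a pseudouridine synthase of nucleus and mitochondria, had 79.0 CPM in A, 42.1 in B and 53.3 in C, against 23.8, 26.7 and 32.6 in young livers. Its old livers lay clear of the young ones, and it was called with A (log2 fold change 1.10, FDR 0.0376) and without A (0.82, FDR 0.0595). DUS3L, a dihydrouridine synthase, had 225 CPM in A, 44.0 in B and 50.3 in C, against 14.5, 22.7 and 46.4 in young livers, with overlap (log2 fold change 2.06, FDR 0.0510). ADAT3, of the adenosine deaminase that makes inosine in the anticodon, had 2.79 CPM in A, 2.74 in B and 2.13 in C, against 0.910, 1.11 and 1.54 in young livers (log2 fold change 1.10, FDR 0.0541). The other genes called higher were TRMT61A, TRMT44, TRMT2A and WDR4, which are methyltransferases or their subunits, the thiouridylase TRMU, the dihydrouridine synthase DUS1L and the queuine transferase QTRT1, with log2 fold changes from 0.80 (TRMT44) to 1.36 (TRMU). TRMT10C, a subunit of mitochondrial RNase P, fell, with 3.35 CPM in A, 12.7 in B and 13.2 in C, against 18.5, 20.5 and 28.6 in young livers (log2 fold change -1.14, FDR 0.0948). Without A the median of the 48 genes was 0.12 and PUS1 was the only one called, beside 2.13% of all genes higher and 1.35% lower.

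The factors that carry charged tRNA to the ribosome had negative fold changes in 6 of 6 genes tested, beside 6039 of 12277 over all genes. Their median was -0.64, and none was called. Lowest in p was EEF1G, a subunit of the exchange factor for EEF1A, with 119 CPM in A, 318 in B and 372 in C, against 384, 455 and 551 in young livers. All old livers lay below the young, and A was the lowest by far (log2 fold change -0.79, FDR 0.155). TSFM, the mitochondrial exchange factor, had a log2 fold change of -0.73 (FDR 0.159; without A -0.39) and TUFM, its partner, of -0.52 (FDR 0.281; without A -0.19). EEF1A1 had 77.2 CPM in A, 864 in B and 929 in C, against 248 in the oldest young liver and 855.5 to 1326 in the other young livers. Its log2 fold change was -0.55 (FDR 0.598), and -0.02 without A. Without A the median of the 6 genes was -0.28.

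Of 13 further genes of the ATF4 pathway tested, 1 was higher and 1 lower, beside 11.7% and 3.65% of all genes. DDIT3, a transcription factor of the stress response, rose, with 31.7 CPM in A, 8.88 in B and 11.7 in C, against 2.72, 4.79 and 10.3 in young livers (log2 fold change 1.68, FDR 0.0587). PHGDH, the first enzyme of serine synthesis, fell, with 34.5 CPM in A, 153 in B and 175 in C, against 216, 339 and 385 in young livers (log2 fold change -1.39, FDR 0.0859). Neither was called without A (FDR 0.283 and 0.104). VLDLR, a lipoprotein receptor, had a log2 fold change of 1.55 (FDR 0.125), with 3.30 CPM in A, 0.718 in B and 0.696 in C, against 0.280, 0.376 and 1.06 in young livers, and of 0.42 without A. ATF4 itself had a log2 fold change of 0.40 (FDR 0.441). The median of the list was 0.28, and 0.17 without A.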

How the data were processed

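Livers of 3 old and 6 young males were compared, 1 library per animal. The authors mapped single reads with STAR 2.4.1d, kept uniquely mapped reads, and counted them per gene of their own annotation with HTSeq. The deposited values are whole-number counts, not normalized. The strand setting of counting is not given in the sources used here. In the RefSeq gene table, of another build and used for names and neighbours only, 39 of 39 genes were matched and 16 overlap an adjacent gene model, FARS2 and SARS2 among them, so their counts may hold reads of the neighbour.

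Left out were 93 rows whose place depends on the treatment of upper and lower case (0.319% of counts) and 25 rows with symbols turned into dates (0.133%), none a synthetase, which leaves 16221 rows. The main test was edgeR 4.0.16 in R 4.3.3 (TMM, filterByExpr by age group, robust glmQLFit, glmQLFTest, no covariates), with Benjamini-Hochberg adjustment at FDR 0.1. The study's own tool, DESeq2, was an alternative (1.42.0), as were limma 3.58.1 (voom with quality weights), DESeq2 size factors, upper quartile scaling, no filter, at least 10 counts in every liver, FDR 0.05, the 93 rows kept, each liver left out in turn, and old A and the oldest young liver left out together. The edgeR step was tested on simulated counts. Counts of every 2 libraries differed by more than sampling noise (chi-square divided by its degrees of freedom at least 29.0). Each library counted as 1 replicate. The p-values set the difference between groups against the spread between animals within groups, estimated with information shared across genes.

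Values in every old liver, with the lowest, median and highest young value, are given for each synthetase called and for the 3 scaffold proteins. The same holds for the 6 cytosolic and 6 mitochondrial synthetases with the lowest p. For companion genes called or among the 3 of lowest p they are given in part. Genes named for their level in A or in the oldest young liver were chosen after their values were seen. The genes, lists and tests were chosen with earlier results of these data known. Sequences and levels per gene length are not analysed here. One further gene is not reported here.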

Additional observations from a re-analysis of the deposited data

Results flagged for a closer look

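Among the young livers, 6 of the 39 genes had a liver far from the others by Dixon's criterion; the old group of 3 livers was not examined in this way. Chance alone marks about 1 in 20 such groups, and the genes share libraries. The oldest young liver was the distant one in 5 of the 6 genes. It was high for TARS (41.4 CPM, against 14.8 to 20.3 in the other young livers), for FARSA, the catalytic chain of the cytosolic phenylalanine enzyme (68.5 CPM, against 41.4 to 48.0), and for AIMP2 (5.22 CPM, against 3.39 to 4.01). It was low for MARS2 (4.16 CPM, against 15.4 to 21.4) and TARS2 (6.60 CPM, against 17.6 to 21.6). The sixth gene was CARS2, the mitochondrial cysteine enzyme, for which young liver 4 had 34.3 CPM, against 21.9 to 26.5 in the others. Levels of FARSA in old livers were 102 CPM in A, 42.3 in B and 41.5 in C.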

How the results depend on the processing

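Calls of single synthetases depended on which livers entered the fit. In edgeR with all livers, 2 cytosolic and 2 mitochondrial genes were higher and 0 and 1 lower. Leaving out 1 liver at a time gave 0 to 3 cytosolic and 0 to 3 mitochondrial genes higher, 0 to 0 cytosolic and 0 to 4 mitochondrial genes lower, and medians of 0.02 to 0.15 (cytosolic) and -0.26 to 0.06 (mitochondrial). None of the 5 calls held in each of these 9 fits: FARS2 was called in 6, VARS, SARS2 and VARS2 in 4 each and TARS in 3, all with an unchanged sign. Calls of all genes ranged from 125 to 2071 higher and from 62 to 862 lower in the same fits, beside 1437 and 448 with all livers. The fits with the fewest calls left out young liver 2 (0 members called), 4 (0) or 6 (0). At FDR 0.05, 0 cytosolic and 0 mitochondrial genes were higher, and 0 and 1 (FARS2) were lower. Limma voom called 6 cytosolic genes higher and 2 lower and 4 mitochondrial genes lower, DESeq2 called 3 mitochondrial genes lower, and with A and young liver 3 left out 1 cytosolic and 4 mitochondrial genes were lower. The cytosolic median was 0.09 with voom, 0.09 with upper quartile scaling and 0.08 with A and young liver 3 left out. In 15 of the 39 genes, none of them called, the sign turned when some 1 liver was left out: 7 cytosolic (AARS, EPRS, FARSA, GARS, HARS, MARS, RARS), 6 mitochondrial (EARS2, HARS2, LARS2, MARS2, PARS2, WARS2) and AIMP1 and AIMP2. For 9 of the 13 synthetases it turned without A. Of the members given with liver values by the rule for named genes, the sign turned for AIMP1 and AIMP2. AIMP1 had 0.02 without A, in a range of -0.40 to 0.02 over the fits that each left out a liver. AIMP2 had 0.02 with voom, 0.02 with A and young liver 3 left out, and 0.01 with young liver 3 alone left out. Its range over the fits that each left out a liver was -0.15 to 0.01. The cause of these shifts was not tested. Filters, DESeq2 size factors and the 93 rows kept changed no count of called genes by more than 1.5 times. No paired analysis was possible because replicate numbers only follow the order of the records and no old animal is tied to a young one.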
